A study of Mus musculus with 30 samples.

Results

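The genes described here were the subunit genes of the AMPA and NMDA receptors, the ion channels that carry most fast excitatory transmission between hippocampal neurons. They were 10 of the 21412 genes in the deposited table of hippocampus RNA sequencing, taken by symbol through the Ensembl identifiers of the NCBIM37 mouse annotation: Gria1, Gria2, Gria3 and Gria4 for the AMPA receptor, and Grin1, Grin2a, Grin2b, Grin2c, Grin2d and Grin3a for the NMDA receptor. Each symbol matched 1 gene, and all 10 genes passed the filter on low values in every comparison. The mice were male BALB/c mice, and 1 library was made from the hippocampus of each of 30 animals, 5 in each of 6 groups. The Ctr, LD and HD mice were obtained at 2 to 3 weeks of age, housed singly and fed a purified diet, and no genotype or allele is named for any group. The Ctr group ate feed without added methylmercury (MeHg, an organic mercury compound that passes into the brain). The LD group ate 0.28 mg MeHg per kg feed and the HD group 5 mg per kg feed, both for 11 weeks. The Se_Ctr, Se_LD and Se_HD groups carried the same dose names in the labels together with selenium, which the series title names as selenium-methionine; the amount of selenium and the MeHg doses of these 3 groups are not given in the sources used here. Libraries are named below by group and by the number in their title.

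AMPA and NMDA receptors are both assembled from 4 subunits around a central pore. AMPA receptors open within milliseconds of glutamate release, and the GluA2 subunit made from Gria2 sets whether the channel lets calcium through. NMDA receptors need glutamate and a co-agonist, glycine or D-serine, and combine the obligatory GluN1 subunit made from Grin1 with GluN2 subunits from Grin2a to Grin2d or with GluN3 subunits such as that from Grin3a. In the forebrain the balance of Grin2a to Grin2b expression rises as synapses mature, and both receptor families are needed for synaptic plasticity.

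The codon that sets calcium passage through the pore is shown for 8 of the genes, since it separates the AMPA from the NMDA receptor genes at the DNA level. The sequences were read from the NCBIM37 genome on the coding strand, within 1 exon each, with the codon in capitals. In the 4 AMPA receptor genes it is the glutamine codon of the Q/R site, at which the Gria2 transcript is known to be changed to arginine by RNA editing after transcription; counts per gene do not show this editing.

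Gria1: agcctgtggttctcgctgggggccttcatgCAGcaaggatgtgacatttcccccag
Gria2: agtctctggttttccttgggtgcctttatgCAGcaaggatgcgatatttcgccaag
Gria3: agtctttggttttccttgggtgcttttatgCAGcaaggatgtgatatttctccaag
Gria4: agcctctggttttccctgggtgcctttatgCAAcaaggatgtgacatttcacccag

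The whole genes span chr11:56824889-57143746 (Gria1), chr3:80488858-80606713 (Gria2), chrX:38754031-39031778 (Gria3) and chr9:4417899-4796234 (Gria4), and the stretches lie at chr11:57056566-57056621 (plus strand, exon 11 of 16), chr3:80510810-80510865 (minus strand, exon 11 of 17), chrX:38963412-38963467 (plus strand, exon 12 of 17) and chr9:4464114-4464169 (minus strand, exon 12 of 17). All 4 genes, Gria2 included, carry a glutamine codon in the genome, CAA in Gria4 and CAG in the other 3, and in each of them the codon ends 23 bases before the exon does. In 4 of the NMDA receptor genes the asparagine codon of the pore is shown.

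Grin1: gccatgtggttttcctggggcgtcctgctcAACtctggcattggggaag
Grin2a: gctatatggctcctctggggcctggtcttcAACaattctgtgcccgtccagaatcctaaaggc
Grin2c: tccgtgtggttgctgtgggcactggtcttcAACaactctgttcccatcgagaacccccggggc
Grin2d: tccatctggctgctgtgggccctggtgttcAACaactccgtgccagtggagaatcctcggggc

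All 6 NMDA receptor genes lie on the minus strand: Grin1 at chr2:25146701-25174707, Grin2a at chr16:9577803-9995014, Grin2b at chr6:135679844-136123529, Grin2c at chr11:115110483-115128557, Grin2d at chr7:53087253-53126298 and Grin3a at chr4:49674483-49858616. The stretches lie at chr2:25152890-25152938 (exon 14 of 21), chr16:9653624-9653686 (exon 10 of 14), chr11:115115147-115115209 (exon 9 of 13) and chr7:53109733-53109795 (exon 8 of 12), and all 4 genes shown carry AAC at this codon. The coding sequences of the 10 genes can be told apart from those of other genes: no 75-base stretch, the read length, in the annotated coding transcripts of any of the 10 genes was shared with a coding transcript of another gene. The gene models differed at their 3' ends, since the longest annotated 3' untranslated region was 117 bases in Grin2a and 402 bases in Grin2c, against 2598 bases in Gria1 and 3782 bases in Gria2. Annotated genes on the opposite strand overlap Grin1 (E130003G02Rik), Grin2b (4 genes) and Grin2c, and genes on the same strand overlap Gria2, Gria3, Gria4 and Grin3a (Ppp3r2 among them). Whether strand was used in the counting is not given in the sources used here, so reads of the opposite-strand partners cannot be told apart from those of Grin1, Grin2b and Grin2c where the exons overlap. How reads in a same-strand overlap were assigned is not given either.

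The libraries held between 5768208 and 11510521 reads on genes, with a median of 9351470. Ctr library 13, the shallowest, stood apart: genes annotated as rRNA, mitochondrial rRNA, snoRNA, snRNA or miscellaneous RNA took 8.19% of its normalized counts, against 1.30 to 3.02% in the other 29 libraries. HD library 15 (3.02%) and LD library 20 (2.80%) came next. Ctr library 13 bears on Grin2a and Grin2b, and results are given with and without it. Hippocampal markers were present in every library, as the 5 dentate gyrus markers summed to between 1104 and 2878 normalized counts and the 4 CA1 markers to between 2485 and 4531, although the CA1 marker Pou3f1 had no read in 12 libraries. Markers of a neighbouring tissue, the choroid plexus, varied widely within groups, from 273 to 37371 normalized counts over the 30 libraries. Values below are the deposited counts, which the authors had divided by each library's size factor, and are called normalized counts.

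Levels of different genes were compared per kb of annotated exon. Gria1, the GluA1 subunit that is inserted into synapses during potentiation, was the most abundant, with 1466 ± 220 normalized counts per kb (SD, n = 30), followed by Gria2 with 1178 ± 133. Gria1 exceeded Gria2 in 29 of 30 libraries. Gria3 followed with 232 ± 22.7 and Gria4, the subunit of many interneurons and of early development, with 145 ± 21.8 normalized counts per kb. Grin1 stood at 130 ± 17.2, and Gria4 exceeded it in 20 of 30 libraries, so these neighbours did not differ beyond their spread. Gria1 made up 48.4 ± 2.97% of the AMPA receptor transcripts per kb, Gria2 39.0 ± 2.31%, Gria3 7.71 ± 0.454% and Gria4 4.85 ± 0.875% (SD, n = 30).

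Among the genes for GluN2 and GluN3 subunits, Grin2c stood highest at 81.0 ± 10.7 normalized counts per kb (SD, n = 30). Grin2b had 30.6 ± 19.3, Grin3a 24.3 ± 3.604, Grin2a 22.7 ± 19.8 and Grin2d 21.3 ± 3.86 normalized counts per kb. The means of these 4 lay within the SDs of Grin2a and Grin2b, but within libraries Grin2b exceeded Grin3a in 25 of 30 and Grin3a exceeded Grin2a in 26 of 30, while Grin2a exceeded Grin2d in 11 of 30. Leaving out Ctr library 13 lowered Grin2b to 27.2 ± 4.96 and Grin2a to 19.2 ± 3.30 normalized counts per kb (SD, n = 29), which put Grin2a below Grin2d, at 21.2 ± 3.89. The per-kb levels rest on annotated exons, and the annotated 3' ends of Grin2a and Grin2c are short (above), while that of Grin2b has 2272 bases. Whether transcripts run past these ends was not tested. The order of the genes and the AMPA to NMDA ratio therefore hold for annotated exons alone. The 4 AMPA receptor genes together reached 9.86 ± 1.22 times the 6 NMDA receptor genes per kb (SD, n = 30), from 6.62 in Ctr library 13 to 11.3.

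**Figure D1:**
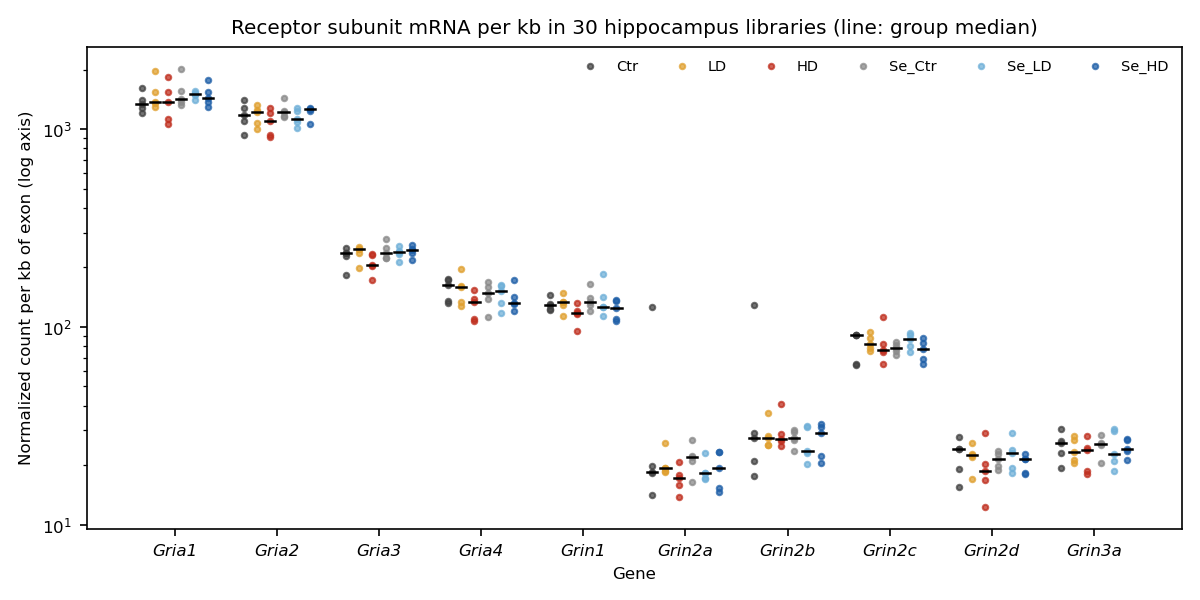
Normalized counts per kb of annotated exon (log axis) for the 10 receptor subunit genes, with 1 point per library, colours for the 6 groups and a line at each group's median. Gria1 and Gria2 lie above the other 8 genes in all 30 libraries, and a single Ctr point (library 13) lies above the rest for Grin2a and Grin2b.

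The AMPA receptor genes of the core hippocampal receptor, Gria1 and Gria2, overlapped between all groups. Gria1 stood at 7326, 8455, 9829, 8115 and 7782 normalized counts in the Ctr libraries 1, 7, 13, 19 and 25, and at 8269, 6437, 11053, 6800 and 9363 in the HD libraries 3, 9, 15, 21 and 27. HD held both the lowest Gria1 value of the whole series, in library 9, and one of the highest, in library 15, so that its SD (1897) exceeded that of Ctr (951) around nearly the same mean, 8385 against 8301. Gria2 stood at 6507, 8205, 8882, 7623 and 9799 normalized counts in Ctr and at 7621, 6395, 8418, 6546 and 8903 in HD. The HD libraries 9 and 21 were the lowest 2 of their group for both genes. In the other groups Gria1 averaged 9126 ± 1685 normalized counts in LD, 9300.5 ± 1714 in Se_Ctr, 9045 ± 347 in Se_LD and 9007 ± 1136 in Se_HD (SD, n = 5). Gria2 averaged 8177 ± 909, 8668 ± 817, 8015 ± 754 and 8531 ± 635 in the same groups.

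Gria3, whose product forms receptors with GluA2, stood at 1812, 2341, 2488, 2254 and 2330 normalized counts in Ctr, and at 2022, 2015, 2274, 1709 and 2313 in HD. In Se_HD it stood at 2450, 2409, 2334, 2571 and 2158 normalized counts in libraries 6, 12, 18, 24 and 30. Of the 5 Se_HD libraries 4 lay above every HD library, and the fifth, library 30, lay inside the HD range. Gria4 stood at 1096, 844, 825, 1017 and 1085 normalized counts in Ctr and at 671, 843, 962, 690 and 864 in HD, so that 2 HD libraries, 3 and 21, lay below every Ctr library and the other 3 lay within the Ctr range. In LD it stood at 834, 1232, 998, 1008 and 798, and the selenium groups overlapped throughout, from 707 to 1055 in Se_Ctr, from 742 to 1021 in Se_LD and from 759 to 1086 in Se_HD.

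Grin1, the subunit every NMDA receptor needs, stood at 1197, 1405, 1183, 1247 and 1268 normalized counts in Ctr and at 1137, 1126, 1286, 929 and 1164 in HD. Of the 5 HD libraries 4 lay below every Ctr library, and HD library 15 lay inside the Ctr range. In the selenium groups Grin1 stood at 1248, 1363, 1296, 1170 and 1591 in Se_Ctr and at 1034, 1212, 1333, 1317 and 1070 in Se_HD, where 2 of 5 libraries lay below every Se_Ctr library. The highest Grin1 value of the series, 1804, was in Se_LD library 17.

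Grin2a, the GluN2A subunit of mature synapses, stood at 74.9, 105, 667, 96.4 and 98.0 normalized counts in the Ctr libraries 1, 7, 13, 19 and 25, and at 94.0, 84.2, 110, 72.6 and 91.6 in HD. Grin2b, the GluN2B subunit of early synapses, stood at 144, 171, 1060, 224 and 238 in the same Ctr libraries and at 216, 221, 335, 204 and 234 in HD. For both genes the value of Ctr library 13 was far above all others, and the remaining Ctr libraries overlapped HD. The other NMDA receptor genes varied over narrower ranges in the 30 libraries: Grin2c, a subunit known from cerebellum and astrocytes, from 325 to 565 normalized counts, Grin2d, a subunit of interneurons, from 71.8 to 171, and Grin3a, which lowers calcium entry, from 285 to 483. Their HD means were 413 ± 90.4, 114 ± 36.3 and 357 ± 67.0 normalized counts, and their Ctr means 406 ± 73.0, 130 ± 28.1 and 395 ± 64.7 (SD, n = 5). HD library 9 held the highest Grin2c value (565) and HD library 21 the lowest Grin2d value (71.8) of the series.

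**Figure D2:**
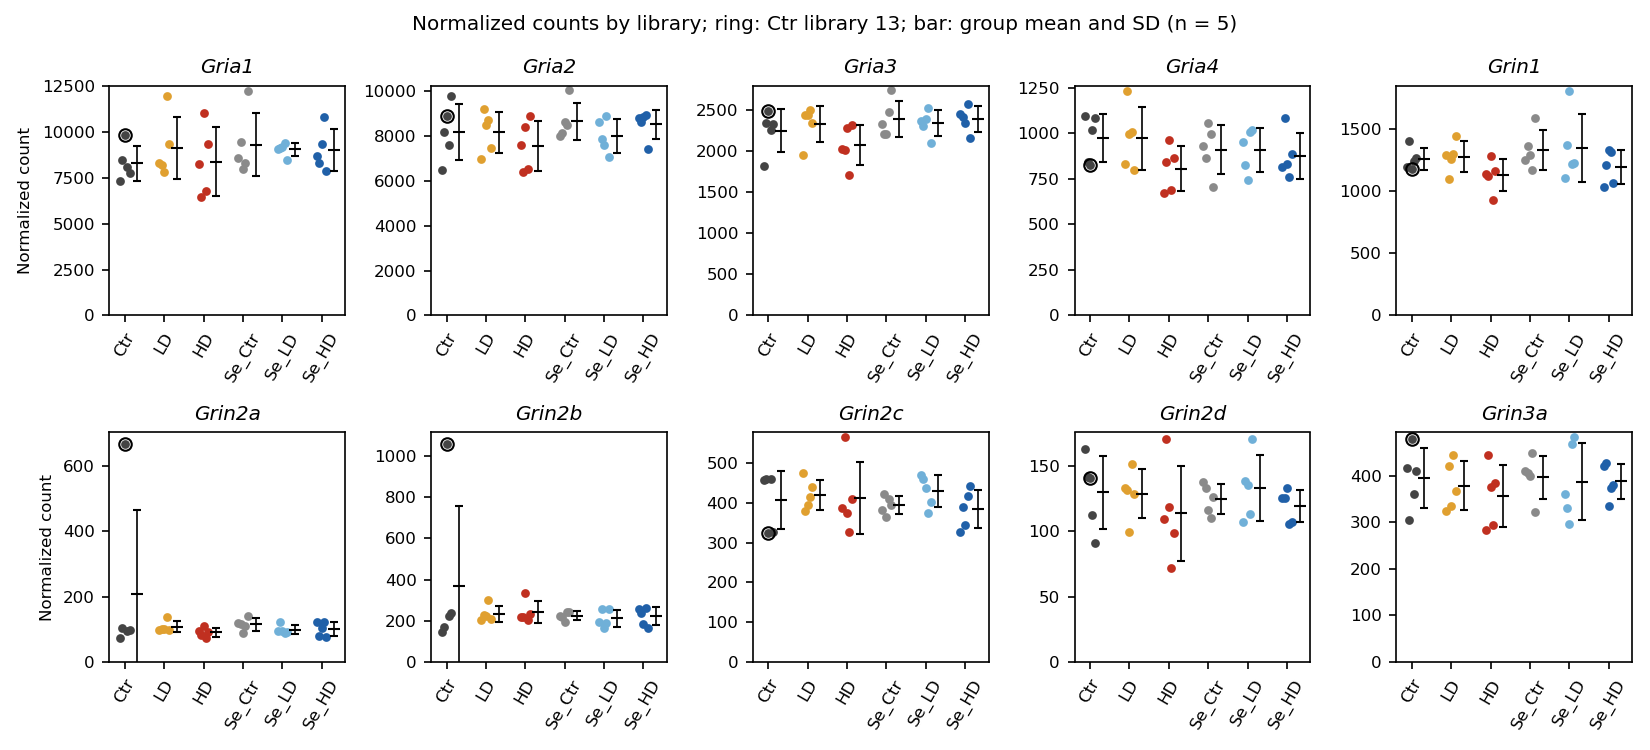
Normalized counts of the 10 genes in the 30 libraries by group (5 points each), with the group mean and SD as a bar beside the points and a ring around Ctr library 13. All groups overlap in all 10 panels, and the ringed library stands alone for Grin2a (667) and Grin2b (1060).

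The first question of the design was whether MeHg in feed changed the receptor genes without selenium. Each comparison was tested with limma, a linear model with a moderated variance, on log2(normalized count + 1), and p-values were adjusted by Benjamini-Hochberg over all genes tested. None of the 10 genes passed an adjusted p of 0.05 in HD against Ctr with limma, edgeR or DESeq2, beside 0.13% of the 20031 genes tested that passed with limma. DESeq2 gave no p for Grin2a or Grin2b in the fit of the Ctr, LD and HD libraries, so it could not call them. At an unadjusted limma p under 0.05, the study's own threshold, 1 of 10 passed, beside 8.34% of all genes. That gene was Gria4, with 806 ± 123 normalized counts in HD and 973 ± 131 in Ctr (SD) and a log2 fold change of -0.27 ± 0.13 (SE, 95% interval -0.54 to -0.01, limma adjusted p = 0.583). For Gria4 the unadjusted limma p was 0.0455, and the exact two-sided permutation test of 5 against 5, whose smallest possible p is 0.00794, gave p = 0.0714. Leaving out Ctr library 13 moved the Gria4 value to -0.33 (limma adjusted p = 0.426), and leaving out HD library 15 and LD library 20 as well moved it to -0.40 (limma adjusted p = 0.270). Leaving out each library in turn kept it between -0.34 and -0.21, but the unadjusted p rose above 0.05 in 6 of these 15 fits, without Ctr library 1, 19 or 25, LD library 14, or HD library 3 or 21 (limma adjusted p from 0.631 to 0.841). It also rose above 0.05 with limma without trend (limma adjusted p = 0.703) and when each run of 6 library numbers in order, which holds 1 library of every group, was given a term of its own (limma adjusted p = 0.666). Over all settings tried, 0.270 was the lowest adjusted p of any of the 10 genes.

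Grin1 had a log2 fold change of -0.16 ± 0.10 in HD against Ctr (SE, 95% interval -0.37 to 0.04, limma adjusted p = 0.715), with an exact permutation p of 0.0794. Grin2a had -0.61 ± 0.38 (95% interval -1.41 to 0.18), which became -0.05 without Ctr library 13. With edgeR on the recovered reads it was -1.16 (edgeR adjusted p = 0.370), and Grin2a was the gene that passed the unadjusted threshold beside Gria4 there; DESeq2 gave no p for Grin2a or Grin2b. Grin2b had -0.17 ± 0.34, and without that library the sign turned, to 0.32 ± 0.17 (SE, limma adjusted p = 0.585). The remaining genes lay between -0.22 and 0.02 on the log2 scale, with Gria1 at -0.01 (95% interval -0.32 to 0.30) and Gria2 at -0.11 (95% interval -0.38 to 0.16). Of the 10 log2 fold changes 9 were below 0, with a median of -0.16, while 48.8% of all genes tested lay below 0, with a median of 0.01. HD had the lowest of the 6 group means for 7 of the 10 genes and for 29.9% of the 11097 genes that averaged 50 normalized counts or more. Fewer cells of a type and less RNA per cell cannot be told apart in such bulk samples.

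Not a single gene of the 10 separated HD from Ctr without overlap, as 1.71% of all genes did. LD against Ctr passed the adjusted threshold for 0% of all genes and for none of the 10 with limma, edgeR or DESeq2. DESeq2 again gave no p for Grin2a or Grin2b, as the fit was the same. At an unadjusted limma p under 0.05 none of the 10 passed, beside 3.01% of all genes. The log2 fold changes of LD against Ctr were small outside Grin2a and Grin2b, from -0.05 in Grin3a to 0.13 in Gria1, and the interval of Gria2 ran from -0.27 to 0.27. Grin2a and Grin2b had -0.36 ± 0.38 and -0.21 ± 0.34 (SE). Without Ctr library 13 they became 0.20 and 0.28.

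HD against LD, which shares its HD libraries with HD against Ctr, passed the adjusted limma threshold in 0.0499% of all genes and in none of the 10, and likewise in none of the 10 with edgeR or DESeq2. The DESeq2 fit was the same here too, without a p for Grin2a or Grin2b. At an unadjusted limma p under 0.05 none of the 10 passed, beside 6.96% of all genes, and Gria4 came closest at -0.27 ± 0.13 (SE, 95% interval -0.54 to 0.00, limma adjusted p = 0.718, exact permutation p = 0.127). With edgeR and DESeq2 Gria4 passed the unadjusted threshold, with adjusted p-values of 0.618 and 0.627. Groups without overlap were found for 1.34% of all genes in HD against LD and for none of the 10.

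The groups with the same dose names were compared among the selenium groups, whose MeHg doses are not given. The 95% intervals of Se_HD against Se_Ctr were narrower than those of HD against Ctr for 9 of the 10 genes, and for Grin1 the interval was wider, at 0.23 to either side of the log2 fold change against 0.20. The widest were those of Grin2a, at 0.31 with selenium and 0.80 without it, and leaving out Ctr library 13 lowered the SE of Grin2a in HD against Ctr from 0.38 to 0.16. Se_HD against Se_Ctr passed the adjusted limma threshold for 0% of all genes and none of the 10, and the unadjusted one for 4.19% of all genes and none of the 10. Grin1 had -0.16 ± 0.11 (95% interval -0.39 to 0.07), a size like that in HD against Ctr, and Grin2a -0.19 ± 0.15. The AMPA receptor genes lay between -0.05 and 0.00, and the interval of Gria3 ran from -0.15 to 0.15. Se_LD against Se_Ctr and Se_HD against Se_LD passed the adjusted threshold for 0% of all genes and the unadjusted one for 3.31% and 4.94%, and none of the 10 genes passed either with limma. With edgeR and DESeq2, too, none of the 10 passed an adjusted or unadjusted p of 0.05 in these 3 selenium comparisons.

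The effect of selenium itself was compared at each dose in a fit of all 30 libraries. Se_Ctr against Ctr and Se_LD against LD passed the adjusted limma threshold for 0% of all genes and the unadjusted one for 4% and 2.86%, and none of the 10 genes passed either. With edgeR 2 of the 10, Grin2a and Grin2b, passed the unadjusted threshold in Se_Ctr against Ctr (adjusted p = 1.000 for both), with DESeq2 1, Grin2b, and in Se_LD against LD none with either tool. Without Ctr library 13 the limma values of Grin2a and Grin2b in Se_Ctr against Ctr turned from -0.28 and -0.27 to 0.29 and 0.23. In Se_HD against HD, 0.327% of all genes passed the adjusted threshold and 8.38% the unadjusted one. None of the 10 passed the former and 1 of 10 the latter: Gria3, with a log2 fold change of 0.21 ± 0.09 (SE, 95% interval 0.03 to 0.40, limma p = 0.0251, adjusted p = 0.513, exact permutation p = 0.0397). Over the 90 exact tests of the 10 genes in the 9 comparisons between 2 groups, this was the 1 under 0.05. Chance alone would be expected to give more than 1 such value in 90 tests, so the count does not single out Gria3. The share of exact p-values under 0.05 over all genes was not computed. Leaving out each library in turn kept the Gria3 value between 0.15 and 0.25. Its unadjusted limma p rose above 0.05 in 2 of these 30 fits, without HD library 21 (0.15, limma adjusted p = 0.750) and without Se_HD library 24 (0.18, limma adjusted p = 0.678). Gria2 had 0.18 ± 0.11 (95% interval -0.04 to 0.40), Gria1 0.12 ± 0.13 and Gria4 0.12 ± 0.13. In all, 8 of the 10 log2 fold changes of Se_HD against HD were above 0, and the exceptions were Grin2b (-0.13) and Grin2c (-0.09), while 51.5% of all genes tested lay below 0, and 45.2% of those that averaged 50 normalized counts or more.

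Whether the HD and LD effects differed with selenium was tested by interaction terms, which passed the adjusted limma threshold for 0% of all genes and the unadjusted one for 4.77% (HD) and 3.75% (LD), and neither for any of the 10 genes with limma, edgeR or DESeq2. The HD interaction of Gria4 was 0.22 ± 0.18 (95% interval -0.14 to 0.58, limma adjusted p = 0.997), so the Gria4 value in HD against Ctr is not shown to differ from that in Se_HD against Se_Ctr. Grin1, at -0.16 in both diets, had an interaction of 0.00 ± 0.15 with an interval from -0.30 to 0.31.

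Pooling both diets gave narrower intervals for the HD effect than either diet alone for 8 of the 10 genes. For Grin2a and Grin2b, the genes high in Ctr library 13, the pooled intervals reached 0.45 and 0.41 to either side, against 0.31 and 0.28 in Se_HD against Se_Ctr. HD passed the adjusted limma threshold for 0.21% of all genes and the unadjusted one for 9.09%, and of the 10 genes none passed the former and, with limma, Grin1 alone the latter, at -0.16 ± 0.08 (95% interval -0.32 to -0.01, limma p = 0.0400, adjusted p = 0.527, n = 10 per group). The unadjusted limma p of Grin1 rose above 0.05 with limma without trend, and in 7 of the 30 fits that left out a library, those without Ctr library 7 or 25, HD library 21, Se_Ctr library 10 or 28, or Se_HD library 6 or 30, with values from -0.16 to -0.13. Gria4 had -0.16 ± 0.09, and all 10 log2 fold changes were below 0, with a median of -0.10, while 49.7% of all genes lay below 0. Without Ctr library 13 the pooled values of Gria1 and Grin2b lay above 0, at 0.01 and 0.14. With edgeR on all libraries Grin2a passed the unadjusted threshold for HD pooled too (-0.66, edgeR adjusted p = 0.313). That fit held Ctr library 13, with 667 normalized counts of Grin2a against 74.9 to 105 in the other Ctr libraries. EdgeR was not run without it. With limma, LD pooled over both diets passed for 0% and 2.69% of all genes and none of the 10, and selenium pooled over the doses for 0% and 6.62% and none of the 10. With edgeR 1 of the 10 passed the unadjusted threshold in each, Grin2a for LD (-0.55, edgeR adjusted p = 1.000) and Gria3 for selenium (0.11, edgeR adjusted p = 0.640), and with DESeq2 none did. The Grin2a value for LD, too, came with Ctr library 13 in the fit. Without that library Grin2a averaged 93.5 normalized counts in Ctr, against 108 in LD, and it averaged 115 in Se_Ctr against 99.1 in Se_LD. Over all genes DESeq2 called 4 at the adjusted threshold for selenium pooled, 4 in Se_HD against Se_Ctr, 7 in Se_HD against Se_LD and 11 for the HD interaction, where limma and edgeR called 0. The largest of the selenium values relative to its error was again Gria3, at 0.10 ± 0.05 (95% interval -0.003 to 0.21, limma adjusted p = 0.756). Without the 3 libraries highest in non-coding RNA the largest was Gria1, which moved from 0.09 ± 0.08 to 0.18 ± 0.07 (SE, limma adjusted p = 0.686), ahead of Gria3 at 0.14 ± 0.05 (limma adjusted p = 0.686), and both then had an unadjusted p under 0.05. A test over all 6 groups at once passed for 0.444% of all genes after adjustment and for 6.91% before it, and for none of the 10, with unadjusted limma p-values from 0.189 (Gria3) to 0.858 (Grin3a).

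**Figure D3:**
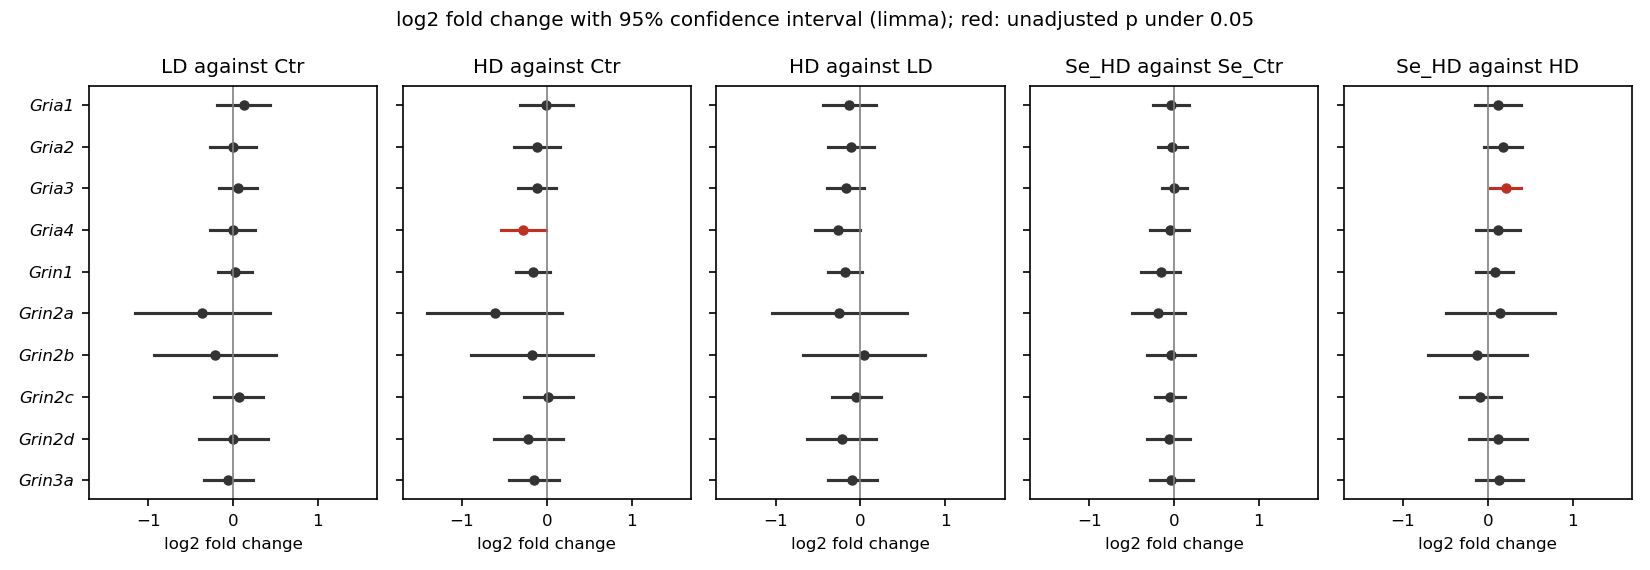
log2 fold changes (points) with 95% confidence intervals (lines) of the 10 genes in 5 comparisons, in red where the unadjusted limma p was under 0.05. The red lines are Gria4 in HD against Ctr (-0.27) and Gria3 in Se_HD against HD (0.21), and Grin2a and Grin2b have the widest intervals in HD against Ctr.

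Grin2a and Grin2b deviated together in Ctr library 13, at 6.80 and 4.75 times the median of the other 29 libraries (98.0 and 223 normalized counts). The next highest values were 142 for Grin2a, in Se_Ctr library 28, and 335 for Grin2b, in HD library 15. The same library held 53867 normalized counts of non-coding RNA genes other than mitochondrial rRNA, against a median of 4891 in the other 29, and LD library 20 (17568) and HD library 15 (17273) came next. In Grin2b these 3 libraries were also the highest 3 of the series. In Grin2a Ctr library 13 and LD library 20 ranked 1 and 3 of 30 and HD library 15 ranked 10, while Se_Ctr library 28, which ranked 26 in non-coding RNA, ranked 2. Of the 13004 genes that averaged 20 normalized counts or more, 45 were more than 2 times as high in Ctr library 13 as in any other library, and 2 of the 10 receptor genes were among them. Whether the share of non-coding RNA has a part in the Grin2a and Grin2b values was not tested.

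**Figure D4:**
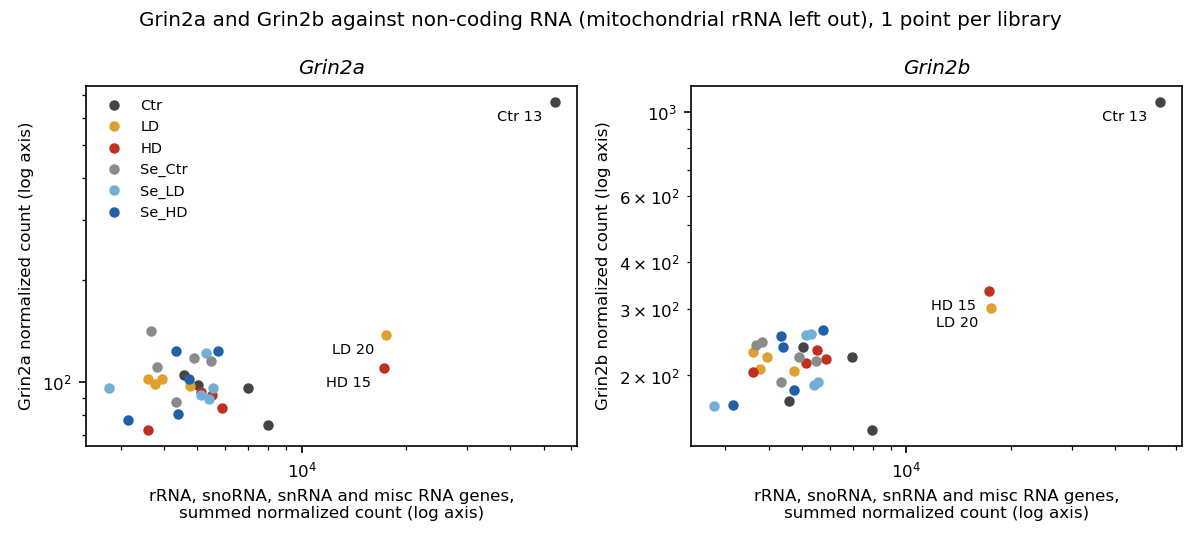
Normalized counts of Grin2a (left) and Grin2b (right) against the summed normalized counts of rRNA, snoRNA, snRNA and miscellaneous RNA genes (both axes log), with 1 point per library coloured by group and the 3 libraries highest on the horizontal axis named. Ctr library 13 stands at the top right in both panels, at 667 and 1060.

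The ratio of Grin2a to Grin2b, which is known to rise with synapse maturation, was taken per kb within each library and is given as a description, with no test. It stood at 0.804, 0.944, 0.971, 0.664 and 0.636 in Ctr, and at 0.671, 0.588, 0.508, 0.549 and 0.605 in HD. The LD libraries kept to a narrow band, 0.733, 0.684, 0.707, 0.706 and 0.735, and every HD library lay below every LD library, while HD library 3 lay within the Ctr range. This ratio was chosen with its values known, and the share of ratios of other gene pairs that separate HD from LD was not computed. The lowest ratio, 0.508, was that of HD library 15, which with LD library 20 (0.706) was among the 3 libraries highest in non-coding RNA and in Grin2b. Among the other 8 libraries HD reached 0.671 at most and LD 0.684 at least. Grin2a rested on few reads, from 82 to 132 per library in LD and from 82 to 117 in HD. The counting error of the ratio was not computed. In Se_HD the ratio spread from 0.523 to 0.867 and overlapped Se_Ctr, at 0.701 to 0.906, and Se_LD, at 0.553 to 0.892. The ratio of Gria1 to Gria2 overlapped between all groups, with means between 1.179 in Ctr and 1.31 in Se_LD (SD 0.154 and 0.0899).

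Markers of other cells are given beside the HD values. The sum of 7 microglia markers ran from 2721 to 5869 normalized counts in HD and from 2189 to 2446 in Ctr, without overlap, and that of 6 astrocyte markers from 49847 to 55889 in HD and from 42490 to 53490 in Ctr. The sum of 7 neuron markers ran from 44200 to 67716 in HD and from 57259 to 65224 in Ctr, and that of 9 inhibitory neuron markers from 4469 to 5654 and from 5576 to 6659. The lowest inhibitory sum of Ctr, 5576, was that of library 13, and every HD library lay below the other Ctr libraries, at 6047 to 6659. HD libraries 21 and 9, with the highest microglia sums (5869 and 5161) and the lowest neuron sums (44200 and 50420), were those with the lowest Gria1 and Gria2 of HD. They also held the lowest Gria3 of HD, at 1709 and 2015, with library 3 next at 2022. In Se_HD the microglia sum ran from 2270 to 2692 and overlapped Se_Ctr, at 2062 to 2716. The astrocyte sum of Se_HD ran from 43679 to 45891, below every HD library, and its neuron sum from 51408 to 64101, within the HD range. None of these markers was at 0 reads in any library. The sum of the 4 CA1 markers, of which Pou3f1 had no read in 12 libraries, ran from 2485 to 3691 in HD and from 2991 to 4277 in Ctr, and HD libraries 3, 9 and 21 (2485, 2865 and 2799) lay below every Ctr library. Other neuronal lists overlapped between HD and Ctr. The excitatory neuron sum ran from 12016 to 17909 in HD and from 12499 to 15600 in Ctr. The CA3 sum ran from 760 to 1079 and from 644 to 1089, and the dentate gyrus sum from 1104 to 1934.5 and from 1140 to 1924. The part of all these markers in the Gria4, Grin1 and Gria3 values was not tested.

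Some of the 10 genes varied together within groups. Over the deviations of the 29 libraries other than Ctr library 13 from their group means, Gria2 and Gria3 had a Pearson r of 0.83, Gria1 and Grin2a 0.74, Gria3 and Grin2a 0.64 and Gria1 and Gria3 0.63. Gria4 and Grin3a had an r of 0.76 with each other and of -0.46 and -0.42 with Grin1. Grin2c and Grin2d had 0.50. Grin2a and Grin2b had 0.68, against 0.93 with Ctr library 13 in, so the higher value rests on that library. These are descriptions over libraries, and the 2 values of a library share its tissue, depth and size factor.

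Cell type and region markers varied along with some of these genes, again as deviations within groups over 29 libraries. Grin1 had an r of 0.70 with the 4 CA1 markers, of which Pou3f1 had no read in 12 libraries. The r of Grin1 was 0.63 with both the neuron and the excitatory neuron markers, 0.62 with the oligodendrocyte markers and -0.59 with the astrocyte markers. Gria1 had 0.66 with the excitatory neuron markers. With the microglia markers Gria1 had -0.49, Gria2 -0.50 and Gria3 -0.45, and Grin2c alone of the 10 genes lay above 0, at 0.13. Gria2 had 0.60 with the dentate gyrus markers, -0.64 with the endothelium and blood markers and -0.60 with the cerebellar granule cell markers. The largest r of any gene with any list was that of Gria3 with the cerebellar granule cell markers, at -0.72, but of that list Gabra6 had no read in 15 libraries and Cbln3 and Cbln1 had medians of 6.77 and 8.29 normalized counts, which leaves Zic1, with a median of 342, as its 1 well measured gene. Gria4 and Grin3a had -0.42 and -0.39 with the CA3 markers and 0.39 and 0.47 with the thalamus markers.

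**Figure D5:**
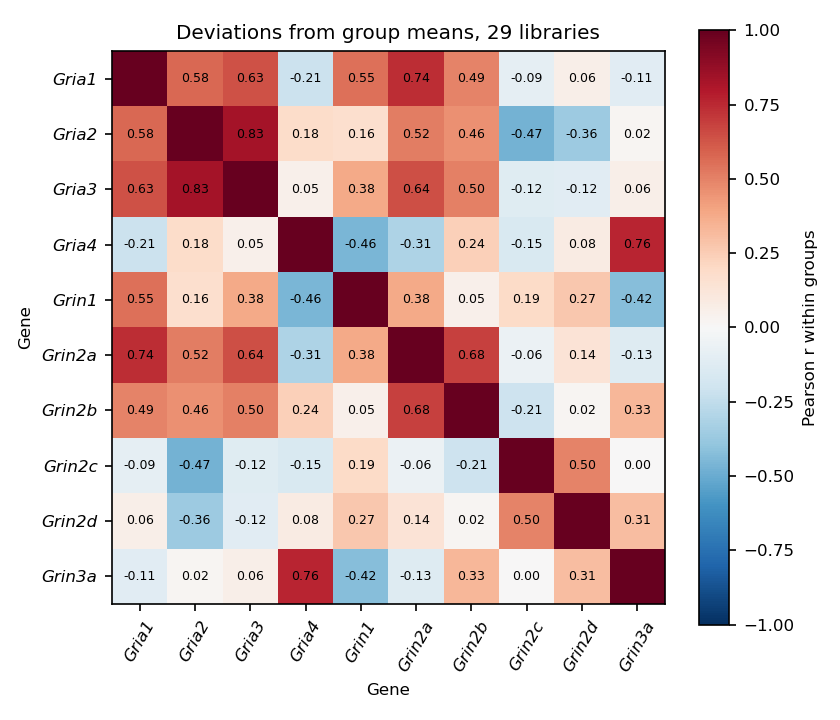
Pearson r between the 10 genes over the deviations of 29 libraries from their group means (Ctr library 13 left out), printed in each cell and coloured from blue (-1) to red (1). Gria2 with Gria3 (0.83) and Gria4 with Grin3a (0.76) are the 2 highest pairs.

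The genes outside the receptor list that were most like each member were taken among the 11097 genes that averaged 50 normalized counts or more, by Pearson r of log2 values over 30 libraries. Gria1 was most like Slc24a3 (r = 0.89), a calcium exchanger, and Bcl11b (0.86), a transcription factor. Gria2 was most like Gpr155 (0.91) and Grm5 (0.91), the metabotropic glutamate receptor 5, and Gria3 like Cnksr2 (0.79), a postsynaptic scaffold, and Sort1 (0.78). Gria4 was most like Elavl4 (0.89), a neuronal RNA-binding protein, and Cbln4 (0.88). Grin1 was most like Dagla (0.84), which makes an endocannabinoid at the synapse, and Ncdn (0.83).

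Grin2a and Grin2b were both most like Gm15564 (0.87 and 0.89), followed by Lars2 (0.86) and D10Bwg1379e (0.89). Without Ctr library 13 these gave way to Epha4 (0.77) and Mphosph10 (0.73) for Grin2a, and to Gm5567 (0.86) and snoU90 (0.79), a small nucleolar RNA, for Grin2b. Grin2c was most like Gpt (0.83) and Timm50 (0.78), Grin2d like Slc6a11 (0.73), a GABA transporter, and Pygm (0.73), and Grin3a like Adrbk2 (0.81) and Adcy8 (0.72). Leaving out that library kept both genes for Grin2c, Grin2d, Grin3a, Grin1, Gria2 and Gria3.

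Genes that work with the receptors were described by 4 lists. In HD against Ctr none of their 68 measured genes passed the adjusted limma threshold, where 0.13% of all genes did. At an unadjusted limma p under 0.05, 5 of the 68 (7.35%) passed, beside 8.34% of all genes, a share near the background. Of 16 genes of the AMPA receptor auxiliary list 1 was lower and 0 higher. It was Cacng3, a subunit that escorts AMPA receptors to the membrane, with 265 ± 50.3 normalized counts in HD against 320 ± 40.7 in Ctr (SD, n = 5). Its log2 fold change was -0.29 ± 0.14 (limma adjusted p = 0.598). Gsg1l came next, at -0.23 ± 0.16 (limma adjusted p = 0.774). Of 10 genes of the other ionotropic list, which holds Neto1 and Neto2 beside receptor subunits, 0 passed. Grik1, a kainate receptor subunit, had -0.20 ± 0.15 (limma adjusted p = 0.796). Of 25 scaffold and trafficking genes 1 was lower and 1 higher, Homer2 (-0.31 ± 0.13) and Homer3 (0.24 ± 0.11), which tie receptors to the postsynaptic density, with adjusted limma p-values of 0.485 and 0.582.

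Of 17 genes for kinases, RNA editing and co-agonist supply 1 was lower and 1 higher in HD against Ctr. Camk2g, a subunit of the calcium-dependent kinase that phosphorylates GluA1, had 1048 ± 131 normalized counts in HD and 1319 ± 121 in Ctr (log2 fold change -0.34 ± 0.12, limma adjusted p = 0.337). Slc1a4, a serine transporter of astrocytes, had 729 ± 343 in HD and 493 ± 23.4 in Ctr (0.46 ± 0.18, limma adjusted p = 0.451), and 532 in Se_HD, where the SD was 30.9. The medians of the 4 lists were -0.05, -0.06, -0.04 and -0.06 on the log2 scale, beside 0.01 over all genes.

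Pooled over both diets, HD had 6 of the 68 genes (8.82%) at an unadjusted limma p under 0.05, beside 9.09% of all genes, again near the background, and none at the adjusted threshold. Of the auxiliary list 3 genes were lower and 0 higher, with Cacng2 (stargazin, -0.22 ± 0.07, limma adjusted p = 0.257) and Gsg1l (-0.26 ± 0.12) leading. Homer2 (-0.22 ± 0.08), Camk2g (-0.18 ± 0.07) and Slc1a4 (0.23 ± 0.10) were those of the other lists that passed. The next scaffold gene, Epb41l1, had -0.09 ± 0.05. Of the other ionotropic list, none of which passed, Grik2, a kainate receptor subunit, had 0.14 ± 0.08 and Grin3b, a GluN3 subunit, -0.47 ± 0.32.

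In Se_HD against HD, 7 of the 68 genes (10.3%) had an unadjusted limma p under 0.05, beside 8.38% of all genes. Of the auxiliary list 2 genes were higher and 0 lower, Shisa7 (0.28 ± 0.13, limma adjusted p = 0.560) and Abhd6 (0.16 ± 0.08, limma adjusted p = 0.586). Of the other ionotropic list 0 genes were higher and 1 was lower, Grin3b (-0.94 ± 0.46, limma adjusted p = 0.590), which averaged 0.939 normalized counts in Se_HD and 3.18 in HD. Of the scaffold and trafficking genes 2 were higher and 0 lower. Nsf, the ATPase that binds GluA2, had 0.24 ± 0.09 (limma adjusted p = 0.429) and Dlg3, a postsynaptic scaffold, 0.18 ± 0.08. Of the kinase, editing and co-agonist genes 0 were higher and 2 were lower. Dao, which breaks down D-serine, had -1.10 ± 0.43 (limma adjusted p = 0.444), with means of 1.19 normalized counts in Se_HD and 3.54 in HD. Slc1a4 had -0.35 ± 0.14 (limma adjusted p = 0.470), its means outside HD lying between 493 and 533 normalized counts. In none of the 14 comparisons did a gene of the 4 lists pass the adjusted limma threshold.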

How the data were processed

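RNA of 30 mouse hippocampi was sequenced per the labels (TruSeq Stranded mRNA, single-end 75 base reads). The authors trimmed with Trim Galore 0.4.2, aligned with HISAT2 to NCBIM37, counted with featureCounts, removed genes with a row sum under 10 and deposited counts divided by DESeq2 size factors (the signal values used here). Multiplied back, all 642360 values (100%, tolerance 0.01) were whole reads; these served edgeR 4.0.16 and DESeq2 1.42.0 as alternatives, which called 45 and 196 genes in HD against Ctr. The strand setting of the counting is not given in the sources used here. Tests used limma 3.58.1 with trend on log2(normalized count + 1) over genes with a sum of at least 10: the 15 libraries of a diet for comparisons within it, all 30 across diets. Called means an adjusted p under 0.05. Fits were tested on simulated data. Exact permutation tests were two-sided. With 1 library per mouse, p-values measure the spread between mice. Intervals are 95%.

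Members and lists (AMPA auxiliary, other ionotropic, scaffold, kinase and editing, and cell type markers) were chosen with earlier results of these data known. All 10 members are named; of each pathway list, genes with an adjusted p under 0.05, otherwise the 2 with the lowest p; and the 2 genes most like each member. This rule is applied to the pathway lists in HD against Ctr, HD pooled and Se_HD against HD. Alternatives were 2 other pseudocounts, 2 filters, 2 normalizations, limma without trend, other libraries in the fit, a set of 6 consecutive library numbers as covariate, a condition on the F test over the groups, leaving out each library, and, added after seeing the data, leaving out the 3 libraries highest in non-coding RNA. A gene of the other ionotropic list and a sequence are not reported here.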

Additional observations from a re-analysis of the deposited data

Results flagged for a closer look

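Among 72 sets of 5 libraries, those of the 10 genes and of 2 ratios of them in the 6 groups, 10 held a library whose gap to the nearest of the others, as a share of the whole range, exceeded the 95% critical value of Dixon's test; chance gives about 1 in 20. Of the 10, 3 were the 3 libraries highest in non-coding RNA in Grin2b: Ctr library 13 (1060 normalized counts against 144 to 238 in the other 4, share 0.897), HD library 15 (335 against 204 to 234, share 0.773) and LD library 20 (301 against 206 to 230, share 0.745). In Grin2a, Ctr library 13 (667 against 74.9 to 105, share 0.949), LD library 20 (138 against 97.8 to 103, share 0.882) and Se_LD library 11 (122 against 89.6 to 96.3, share 0.794) stood apart. In the AMPA receptor genes, Gria2 in Se_HD library 30 (7411 against 8644 to 8946, share 0.803) and Gria3 in LD library 2 (1949 against 2338 to 2493, share 0.715) lay below their groups. The ratio of Gria1 to Gria2 per kb was 0.914 in Ctr library 25 against 1.19 to 1.30 in the others (share 0.712), and 1.51 in HD library 15 against 1.16 to 1.25 (share 0.744). The cause of these values was not tested.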

How the results depend on the processing

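In none of 511 combinations of 14 comparisons and settings did 1 of the 10 genes pass an adjusted p of 0.05, and counts below are of genes at an unadjusted p under 0.05. In HD against Ctr (1 gene) the count was 0 for limma without trend, with the library set as covariate and with the F test also under 0.05, and 2 for edgeR and without the 3 libraries highest in non-coding RNA. In HD against LD (0 genes) it was 1 with no filter, TMM factors, quantile normalization, other libraries in the fit, edgeR and DESeq2, and 2 without those 3 libraries. In Se_Ctr against Ctr (0) it was 2 for edgeR and 1 for DESeq2. In Se_HD against HD (1) it was 0 with the F test. For HD pooled over both diets (1) it was 0 for limma without trend and with the F test, and 2 for edgeR and without the 3 libraries. For LD pooled (0) it was 1 for edgeR. For selenium pooled (0) it was 1 for TMM factors, quantile normalization and edgeR and 2 without the 3 libraries. Leaving out each library gave 0 to 2 in HD against Ctr, HD against LD, Se_HD against HD and HD pooled, and 0 to 1 in Se_HD against Se_LD and selenium pooled.

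Signs turned beyond 1 SE in Grin2a and Grin2b alone, in 10 results without Ctr library 13 and in 9 without the 3 libraries. Leaving out each library moved Grin2b between -0.40 and 0.32 in HD against Ctr, -0.44 and 0.28 in LD against Ctr, -0.49 and 0.23 in Se_Ctr against Ctr, -0.35 and 0.36 in selenium by HD, -0.37 and 0.34 in selenium by LD, and -0.22 and 0.14 in HD pooled. Grin2a moved between -0.58 and 0.20 in LD against Ctr, -0.50 and 0.29 in Se_Ctr against Ctr, -0.40 and 0.38 in selenium by LD, and -0.15 and 0.11 in selenium pooled. In each of these the end with the turned sign was the value without Ctr library 13. Without the 3 libraries, Grin2b stood at 0.20 (HD against Ctr), 0.19 (LD against Ctr), 0.23 (Se_Ctr against Ctr), -0.23 and -0.28 (selenium by HD and by LD) and 0.058 (selenium pooled), and Grin2a at 0.29 (Se_Ctr against Ctr), -0.31 (selenium by LD) and 0.16 (selenium pooled). The cause was not tested. Another sign, within 1 SE included, was found in 246 of 4970 values. The labels give no replicate number that groups share, so they give no pairing. Each set of 6 consecutive library numbers holds 1 library of every group, and of the 3 results at an unadjusted p under 0.05, Gria4 in HD against Ctr no longer passed with this set as a covariate, while Gria3 in Se_HD against HD and Grin1 in HD pooled did. The counts of all genes at an adjusted p under 0.05 ranged, over the alternatives other than leaving out libraries, from 0 to 200 in HD against Ctr (26), 0 to 174 in HD against LD (10), 0 to 225 in Se_HD against HD (70) and 23 to 183 in HD pooled (45). With 5 mice per group, log2 intervals without selenium ran from 0.20 to 0.80 to either side.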
